A study of Mus musculus with 34 samples.

Results

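Cultured hair follicle stem cells (HFSCs) given apoptotic corpses that had been treated with bromoenol lactone (BEL) were compared with HFSCs given untreated corpses. The libraries were chosen by sample title alone, and 8 of the 34 ATAC-seq libraries of the series entered: 4 with BEL-treated corpses as the test group and 4 with untreated corpses as the reference. ATAC-seq finds open chromatin by the cuts that a transposase makes in it, and the deposited data are the peaks called in each library. All 8 libraries came from mouse HFSCs with intact Rxra (Rxra WT), and BEL on the corpses is the labelled difference between the groups. By the study's methods, the recipients were lines grown from HFSCs sorted from skin and kept on fibroblast feeders, carrying a Cre driven by Sox9 (Sox9-creER) and a yellow fluorescent reporter. The corpses were red fluorescent HFSCs killed with cisplatin and were given with fresh medium that they had conditioned once the drug was washed off. BEL was added to the corpses after cisplatin was taken away, the reference corpses received vehicle, and living recipients were sorted before the assay, all as the methods state. The series also holds HFSCs in medium, HFSCs lacking Rxra and HFSCs sorted from skin, and some of the other cultured libraries serve here only to look up regions found in the 8.

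HFSCs sit in the hair follicle and rebuild it at each growth phase, and they can engulf dying neighbours although they are not professional phagocytes. Calcium-independent phospholipase A2, which BEL inhibits, cuts phosphatidylcholine in the dying cell into lysophosphatidylcholine (LPC) and a free fatty acid such as arachidonic acid. LPC serves as a find-me signal, and fatty acids can bind RXR, a nuclear receptor that pairs with the retinoic acid receptors on DNA and acts through coactivators. The comparison therefore asks how the chromatin of the recipient differs when the corpse has been exposed to an inhibitor of that cleavage.

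The 10 DNA stretches printed here stand for what follows, given as the plus strand of mm39. The first 3 are whole regions that had a strong peak in every library with untreated corpses and none with BEL, and nothing in them is capitalized. They were the best ranked of their kind. The Abcb11 region lies at chr2:69185882-69186009, the Pak3 region at chrX:142266001-142266106 and the Elp6 region at chr9:110110318-110110436, each between genes and named for the nearest protein-coding transcription start.
Abcb11 region: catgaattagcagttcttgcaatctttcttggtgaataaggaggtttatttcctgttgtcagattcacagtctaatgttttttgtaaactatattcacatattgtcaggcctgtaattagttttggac
Pak3 region: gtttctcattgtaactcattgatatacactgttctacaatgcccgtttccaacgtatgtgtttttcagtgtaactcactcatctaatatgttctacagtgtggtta
Elp6 region: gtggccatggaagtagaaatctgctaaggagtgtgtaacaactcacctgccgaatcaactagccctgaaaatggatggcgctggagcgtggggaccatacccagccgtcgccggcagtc
The next 3 are 201-base windows centred on the summit of promoter peaks that were stronger with BEL. GGGCGG, the core of KLF and SP sites, is in capitals in either orientation. The Lamp1 window also shows the E-box CACGTG in capitals, and the Acsl4 window the ETS core CCGGAA. The positions are chr15:85619562-85619762 (Ppara), chr8:13209175-13209375 (Lamp1) and chrX:141173476-141173676 (Acsl4).
Ppara promoter: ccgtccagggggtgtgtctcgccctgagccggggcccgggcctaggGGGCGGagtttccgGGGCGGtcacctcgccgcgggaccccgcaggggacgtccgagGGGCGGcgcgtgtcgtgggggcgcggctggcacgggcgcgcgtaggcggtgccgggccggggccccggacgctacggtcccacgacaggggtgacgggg
Lamp1 promoter: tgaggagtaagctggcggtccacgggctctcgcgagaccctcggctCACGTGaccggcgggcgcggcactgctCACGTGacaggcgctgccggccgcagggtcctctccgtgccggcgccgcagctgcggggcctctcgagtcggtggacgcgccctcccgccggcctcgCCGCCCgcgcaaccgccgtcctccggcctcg
Acsl4 promoter: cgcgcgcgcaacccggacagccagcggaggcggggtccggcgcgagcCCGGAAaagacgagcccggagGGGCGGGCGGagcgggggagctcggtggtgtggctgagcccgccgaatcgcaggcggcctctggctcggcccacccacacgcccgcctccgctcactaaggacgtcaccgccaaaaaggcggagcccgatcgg
The last 4 are windows of the same size in peaks that were weaker with BEL. Capitals mark AGGTCA, the core that RXR, the retinoic acid receptors and other nuclear receptors bind, in Mfge8, and TGANTCA, the AP-1 core, in Actr2, Itga6 and Nlrx1, where GGAATG, the TEAD core, is capitalized as well. The positions are chr7:78797276-78797476 (Mfge8 intron), chr11:20057742-20057942 (Actr2 intron), chr2:71620640-71620840 (Itga6 intron) and chr9:44181329-44181529 (between genes beside Nlrx1).
Mfge8 intron: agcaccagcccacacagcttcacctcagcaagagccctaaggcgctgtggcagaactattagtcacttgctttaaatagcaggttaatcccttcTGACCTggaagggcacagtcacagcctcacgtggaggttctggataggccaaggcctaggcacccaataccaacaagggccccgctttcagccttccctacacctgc
Actr2 intron: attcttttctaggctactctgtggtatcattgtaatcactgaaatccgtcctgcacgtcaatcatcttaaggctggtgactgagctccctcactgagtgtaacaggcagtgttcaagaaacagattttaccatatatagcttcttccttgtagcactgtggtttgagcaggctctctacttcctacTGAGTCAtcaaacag
Itga6 intron: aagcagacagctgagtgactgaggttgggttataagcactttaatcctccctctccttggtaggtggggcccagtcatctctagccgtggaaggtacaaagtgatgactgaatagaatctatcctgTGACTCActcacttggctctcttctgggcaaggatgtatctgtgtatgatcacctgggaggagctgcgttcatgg
Nlrx1 flank: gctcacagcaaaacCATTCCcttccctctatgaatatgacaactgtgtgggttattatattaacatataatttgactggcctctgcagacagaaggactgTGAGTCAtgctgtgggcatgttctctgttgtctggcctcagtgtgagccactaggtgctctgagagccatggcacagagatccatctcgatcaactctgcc
Of the 42492 regions with a peak in all 8 libraries, 19.5% held the KLF/SP core within 100 bp of the summit, 4.59% the E-box, 8.16% the ETS core, 10.2% the nuclear receptor core, 39.3% the AP-1 core and 17.1% the TEAD core. A match of letters is a description of the sequence and does not show that a factor binds there.

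The lists held 669264 peaks in all. With BEL, 76694 ± 12714 peaks were called per library, against 90622 ± 20498 with untreated corpses (mean ± SD, n = 4 in each group, exact two-sided permutation p = 0.257). The libraries themselves were not alike. The shortest peak of a library, which the peak caller sets to its mean fragment length, was 60, 80, 104 and 76 bp with untreated corpses and 144, 144, 144 and 145 bp with BEL. Estimated fragments were 6300000, 11100000, 23300000 and 17600000 without BEL and 33300000, 23400000, 32600000 and 44400000 with it, and the median peak was 130, 174, 268 and 177 bp wide against 457, 440, 434 and 442 bp. The groups did not overlap in any of these 3 measures (exact permutation p = 0.0286 each, the smallest that 4 against 4 allows). Median fold enrichment, the height of a summit over its local background, was 7.80 ± 0.206 with BEL and 7.69 ± 0.840 without (exact permutation p = 0.83). Fragment length and depth thus ran with the treatment through all 8 libraries, and their part in each difference below cannot be told apart from that of BEL. The names stored in the files tag replicates 1 and 2 of each group as NonPhago and replicates 3 and 4 as Phago, with numbers 1 and 2 used again within each tag. Nothing in the labels says that replicates were separate cultures, so p-values measure the spread between these libraries only.

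**Figure D1:**
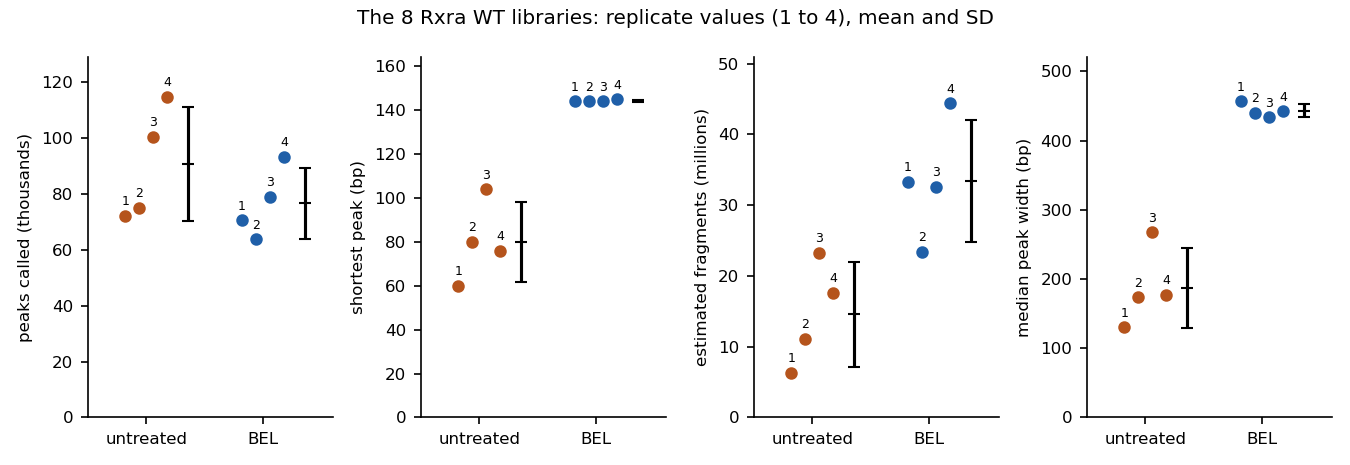
Peaks called, shortest peak, estimated fragments and median peak width in each of the 8 libraries, with replicate numbers beside the points and the mean with SD as black bars. Called peaks overlap between the groups, whereas every BEL library lies above every untreated one in shortest peak, fragments and width.

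Promoter peaks were checked against markers of HFSCs and of other cells that the sort could hold. Of 15 basal keratinocyte markers, 13 had a listed promoter peak in all 8 libraries, among them Krt5, Krt14 and Trp63, and of 25 HFSC identity genes 13 did, among them Sox9, Foxc1, Tcf7l1 and Itga6. The promoter of Cd34, a surface marker of HFSCs, was listed in none. Fibroblast marker promoters were listed for 27.1 ± 4.17% of 12 genes with BEL and 25 ± 0% without, with Vim, Col1a1 and Pdgfra listed and Col1a2, Col3a1, Dcn, Lum and Fap at 0 in all 8 libraries. Immune markers were listed for 25 ± 0% of 12 genes in both groups, with 3 in all 8 libraries and 9, Ptprc among them, in none. Endothelial marker promoters were listed for 27.5 ± 15% of 10 genes with BEL and 12.5 ± 5% without, and melanocyte ones for 25 ± 5.77% and 20 ± 0% of 10. HFSC identity promoters were listed for 87 ± 2% with BEL and 70 ± 5.16% without, and basal keratinocyte ones for 100 ± 0% and 95 ± 6.38%. Over all protein-coding genes the share with a listed promoter was 58.8 ± 0.576% with BEL and 52.8 ± 2.36% without.

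Lists of equal length, the 63739 best peaks of each library, shared more regions within a treatment than across it. The mean Jaccard index, the share of joined regions that a pair of libraries has in common, was 0.787 over the 6 pairs with BEL (0.751 to 0.838), 0.717 over the 6 pairs without (0.666 to 0.796) and 0.695 over the 16 pairs across (0.594 to 0.789). Within exceeded between by 0.0573 (exact permutation of the labels, one-sided p = 0.0286, the smallest possible). The call was lost with all called peaks (0.0405, exact p = 0.0571), with peaks of -log10 q of at least 5 (0.0262, exact p = 0.229) and without BEL replicate 1 or 2 (0.0424 and 0.0396, exact p = 0.0571 each). Untreated replicate 1, the shallowest library, was the least like any other, with indices of 0.594 to 0.676.

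Of 62173 regions present in at least 4 lists, 1404 (2.26%) were listed in all 4 BEL libraries and in no untreated one, and 445 (0.716%) were the reverse, 2.97% together. These BEL-specific and corpse-specific regions differed in kind. Promoters, here within 1 kb of a transcription start, made up 32.6% of the BEL-specific regions (458), 3.60% of the corpse-specific ones (16) and 20.2% of the other 60324 regions. The median BEL-specific region was 674 bp long with 56.2% GC and lay 7040 bp from a start, whereas the median corpse-specific region was 173 bp long with 45% GC and lay 29622 bp away. In 124 of the 445 corpse-specific regions every corpse peak was narrower than the shortest peak of any BEL library. Among all called peaks the counts were 469 and 839, and joining peaks by summits within 100 bp gave 1122 and 1363, so which set was larger depended on how regions were built. Without untreated replicate 3 there were 2283 BEL-specific regions, and without untreated replicate 1, untreated replicate 2 or BEL replicate 4 there were 701, 711 and 776 corpse-specific ones.

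The best-ranked BEL-specific regions were promoters in 9 of 10 cases. They belonged to Mgrn1, Ppara, Tmeff2, Fgfr3, Erlin1, Dcp1b, Itsn2, Zdhhc23 and Cgas, with an intron of Atp4a as the tenth. At Ppara, which encodes a nuclear receptor for fatty acids, fold enrichment was 11, 11.2, 13.6 and 12.3 with BEL, no peak was called in untreated replicate 1, and the other 3 untreated libraries had lower-ranked peaks of 4.07, 4.35 and 5.24. The groups did not overlap in enrichment. At Cgas, which encodes a sensor of cytosolic DNA, the values were 10.9, 10.6, 9.28 and 10.2 with BEL against no peak in untreated replicates 1 and 2 and 5.04 and 4.08 in replicates 3 and 4. Over the 10 regions, 1 to 3 of the untreated libraries held a called peak outside their list, so these were differences of rank and height more than of presence.

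The best-ranked corpse-specific regions were of another kind, all 106 to 163 bp wide and none a promoter. No peak was called at any of the 10 in any BEL library. Enrichment near Abcb11 was 117, 91.4, 70 and 96.9 in the untreated libraries, and near Pak3 it was 98.8, 84.8, 69.6 and 91.6. Near Elp6 it was 54, 60.7, 63.7 and 72. Such heights were far above the median peak of these libraries. Every 25-base word of the Abcb11 region also occurs in the mitochondrial genome, and those of the Pak3 region occur at a median of 3 other places in mm39. The remaining 7 lay in or near Gnb1l, Dpy19l1, Ifngr2, Ddx18, Lrrc4c, Csmd3 and Cdk5rap2. Enrichment near Lrrc4c was low, at 3.08, 2.47, 2.4 and 2.94 in the untreated libraries. A peak cannot be narrower than the shortest peak of its library, 144 bp or more with BEL, and the part of this limit in these 10 regions was not tested. Among peaks of at least 145 bp, a minimum chosen after seeing the data, lists of 30652 peaks gave 944 BEL-specific and 347 corpse-specific regions.

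In the 42492 regions with a peak in all 8 libraries, enrichment was higher with BEL at 1964 (4.62%) and lower at 1259 (2.96%), or 7.58% in either direction, by limma on quantile-normalised log2 fold enrichment with Benjamini-Hochberg adjustment at 0.05. The median called change was 1.55-fold up and 1.57-fold down, and 100 regions rose and 44 fell by more than 2-fold. With the replicate number as a block, 3482 (8.19%) rose and 2866 (6.74%) fell, and all 1964 and 1259 were among them. Within the NonPhago libraries 859 rose and 551 fell, within the Phago libraries 336 and 191, and a test of the difference between these effects called 0 of 42492 regions (limma interaction, 2659 at an unadjusted p under 0.05, lowest adjusted p = 0.797). Without normalization no region was called higher and 106 were called lower, the median of all regions then lying at -0.09 on the log2 scale. The share of calls that were higher was 60.9%, and 48.9% under median centring (1843 higher, 1929 lower). With log2 fold enrichment adjusted for region width and GC within each library, 785 were higher and 830 lower, 509 and 492 of them in common with the counts above. Leaving out a library gave 550 (without BEL replicate 3) to 3213 (without untreated replicate 3) higher and 294 (without BEL replicate 1) to 2641 (without untreated replicate 3) lower regions, and no called region changed direction. Of the 8 libraries, only untreated replicate 1 moved neither count by more than 1.5 times when left out. A lower enrichment in a bulk library can mean fewer cells with the site open or less opening in each, and these cannot be told apart.

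**Figure D2:**
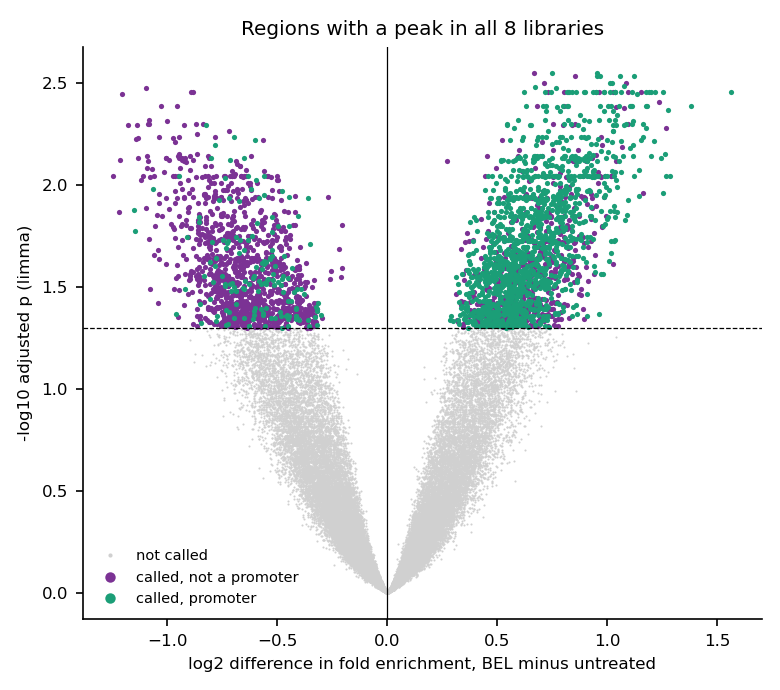
Each of the 42492 shared regions by its log2 difference in fold enrichment (BEL minus untreated, x axis) and -log10 adjusted p from limma (y axis). Green points are called promoters, purple points other called regions, grey points were not called, and the dashed line is the threshold of 0.05; green fills the right side (68.8% of the higher calls) and purple the left (12% of the lower calls were promoters).

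Regions that gained were mostly promoters and regions that lost mostly were not. Promoters were 68.8% (1352) of the higher regions, 12% (151) of the lower ones and 24.2% of all tested. Higher regions were 983 bp long with 57.7% GC and lay 94 bp from a start at the median, and lower regions were 552 bp long with 47.2% GC and lay 11462 bp from one. Lower regions lay in introns (41.9%) or between genes (42.3%) more than higher regions (10.8% and 18.9%). All promoters tested had a median difference of 0.11 and all other regions of -0.04. Outside promoters alone, the fit called 510 regions higher and 402 lower.

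The 10 regions with the lowest p that rose included the promoters of Mrpl15, a mitochondrial ribosomal protein, of Abcd3 and Pex7, a transporter and an import receptor of peroxisomes, and of Nol7, E130311K13Rik, Kif20b and 2310009B15Rik. At Mrpl15, enrichment was 7.35, 9.72, 17.4 and 16.8 in untreated and 22.5, 18.9, 20.9 and 23.7 in BEL libraries, without overlap (log2 difference 0.96 ± 0.12 SE, limma adjusted p = 0.00282). Untreated replicates 1 and 2, the shallowest libraries, were lowest. At Abcd3 it was 5.45, 6.56, 9.55 and 8.99 against 16.2, 14, 15.2 and 15.7, again without overlap (1.12 ± 0.15, limma adjusted p = 0.00293). Regions near Tmem196 and Wls were of repeated sequence, whose words occur at a median of 2893 other places, and the tenth lay 74176 bp from Or5ae2.

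None of the 10 regions with the lowest p that fell was a promoter. Near Nlrx1, a mitochondrial regulator of innate immune signalling, enrichment was 15.3, 12.8, 13.1 and 15.9 in untreated and 4.88, 5.22, 6.21 and 6.17 in BEL libraries (-1.21 ± 0.19, limma adjusted p = 0.00356). In the Itga6 intron, at an integrin subunit that anchors basal cells and by which HFSCs are sorted, it was 11.4, 15.8, 15.5 and 20.3 against 8.25, 6.66, 8.07 and 9.07 (-0.87 ± 0.15, limma adjusted p = 0.00500). Neither region overlapped between the groups. In an intron of Slc9a8, a sodium and proton exchanger, values of 18.6, 17.1, 16.4 and 25.7 stood against 7.62, 8.30, 7.83 and 8.93 (-1.09 ± 0.16, limma adjusted p = 0.00335). The others lay in or near Tcf7l2 (164959 bp away), Muc16, Kpna1, Robo2, 1500009L16Rik, AI429214 and Medag. All 20 of these higher and lower regions stayed called with width and GC adjusted (highest limma adjusted p = 0.0424) and without any 1 library (highest 0.0262).

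Motifs split the same way. The AP-1 core lay within 100 bp of the summit in 53.5% of lower regions, 12.3% of higher regions and 39.3% of all tested. Outside promoters the shares were 58.5%, 32.8% and 49%. The KLF/SP core was in 54.6% of higher, 6.35% of lower and 19.5% of all regions, and outside promoters in 20.1%, 3.16% and 6.75%. RUNX (TGTGGT) was in 8.55% of higher, 25% of lower and 19.3% of all. The presence-based sets had the same order, with AP-1 in 20% of BEL-specific, 40% of corpse-specific and 38.4% of other regions, KLF/SP in 30.3%, 1.12% and 16.9%, and RUNX in 13.5%, 30.8% and 19.9%. Outside promoters the shares were 26.2%, 40.3% and 45.7% for AP-1, 13.8%, 1.2% and 6.69% for KLF/SP, and 16.7%, 31.2% and 22.7% for RUNX, so that AP-1 was then less frequent in corpse-specific than in other regions. The nuclear receptor core AGGTCA was in 7.38% of higher, 10.9% of lower and 10.2% of all regions. Outside promoters it was in 10.1%, 11% and 11.5%, so lower regions then held it no more often than all. It was in 11.3% of BEL-specific, 10.6% of corpse-specific and 11% of other regions, and outside promoters in 14.9%, 10.7% and 12.1%. Paired cores in the degenerate forms named DR1, DR2, DR4 and DR5 were each in under 0.4% of every set. GC content and region length differed between these sets as given above, and their part in the motif shares was not tested.

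**Figure D3:**
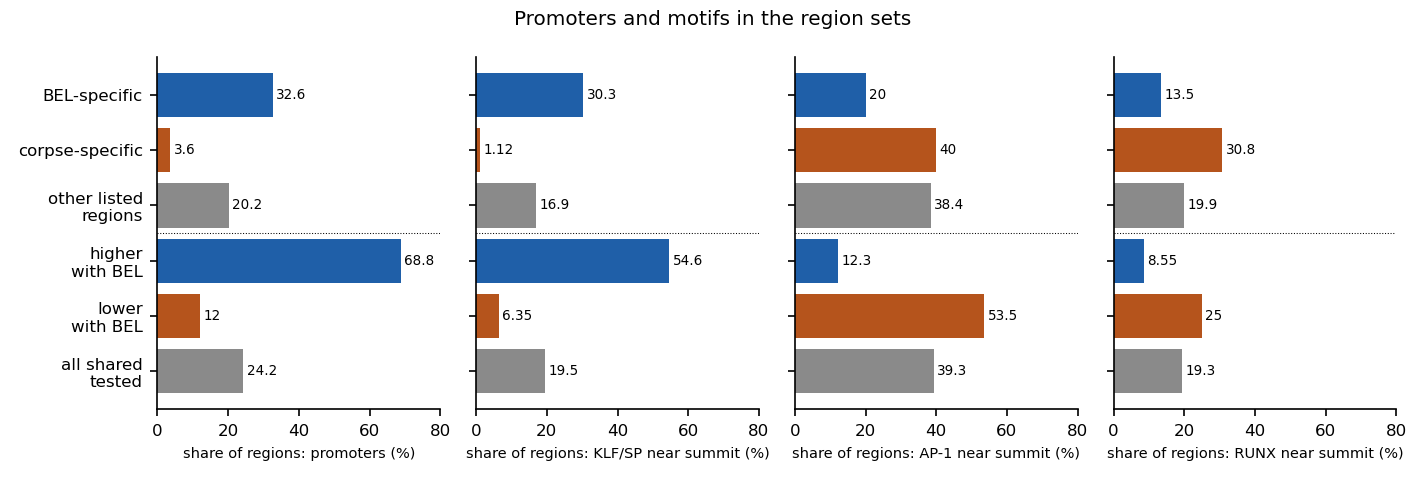
Share of regions (%) that were promoters or held the KLF/SP, AP-1 or RUNX core within 100 bp of the summit, for regions set by presence (upper 3 bars) and by signal (lower 3 bars). Blue is for regions gained with BEL, brown for regions lost with BEL and grey for the reference regions; promoters and KLF/SP are highest in blue and AP-1 and RUNX are highest in brown in each block.

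In the full lists, none of the 30 motif shares passed an exact permutation test with Benjamini-Hochberg adjustment (9 at an unadjusted p under 0.05, lowest adjusted p = 0.0952), nor did any of 7 annotation classes (2 unadjusted). With 4 libraries in each group this adjustment can be passed only when most of the shares reach the smallest possible p, so the result does not show that the lists were alike. KLF/SP, at that smallest p, was in 15.4, 16.8, 16.5 and 16.4% of the untreated lists and 17.7, 17.5, 17.4 and 17.4% of the BEL lists. In lists of 31869 peaks, the best part of each list, 20 motifs and 6 classes passed, and the groups did not overlap in any of those. Promoters were 26.2, 28.6, 29.9 and 27.5% of these shorter untreated lists and 33, 33, 32.8 and 32.6% of the BEL lists (exact permutation, adjusted p = 0.0333). KLF/SP was in 19, 21.8, 23.4 and 21.2% against 26.5, 26.1, 26.3 and 26.5%, and AP-1 in 40.1, 39, 38.9 and 40.5% against 35.2, 35.5, 35.4 and 36.1% (adjusted p = 0.0429 each). The CTCF core AGGGGGCGC rose from 0.784 ± 0.0908% to 1.02 ± 0.00696% at the same adjusted p.

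The gene lists followed the pathway from the cut lipid to the engulfed corpse, and a region was given to a gene when it lay in the gene body, in the 50 kb before it or in the 5 kb after it. In the windows of 29 phospholipase A2 and eicosanoid genes, 3 of 110 shared regions rose and 3 fell (2.73% each), beside 4.62% and 2.96% over all regions, and the median log2 difference was -0.03 beside -0.01. All 3 that rose were of Pla2g4a, the cytosolic calcium-dependent phospholipase A2 that frees arachidonic acid. Its promoter stood at 5.63, 10.7, 12.1 and 15 in untreated and 15, 12.6, 14.7 and 15.5 in BEL libraries, so that 1 untreated value reached the BEL range (0.56 ± 0.16, limma adjusted p = 0.0362). Its introns changed by 0.70 ± 0.17 and 0.61 ± 0.16 (limma adjusted p = 0.0203 and 0.0267). At the promoter of Pla2g6, which encodes the calcium-independent enzyme that BEL inhibits, the values of 7.29, 9.19, 11.2 and 12.5 against 10, 8.22, 9.30 and 10 overlapped (-0.01 ± 0.16, limma adjusted p = 0.982). Ptges, the prostaglandin E synthase, had an intron region that fell from 17.2, 14.5, 17 and 16.9 to 9.67, 9.67, 10.4 and 10.1 (-0.62 ± 0.16, limma adjusted p = 0.0238). Without BEL replicate 1 none of these 4 calls held (limma adjusted p of 0.067 to 0.118), and with width and GC adjusted 1 Pla2g4a intron did (0.0290). The Ptgs2 promoter was at 5.94, 11.1, 11.6 and 12.3 against 11.8, 12.6, 11.1 and 10.6 and was not called (limma adjusted p = 0.370). The list held 9 BEL-specific and 2 corpse-specific of 225 regions, beside 1404 and 445 of 89755 over all regions. Another Pla2g4a intron region was corpse-specific and another Ptges intron region BEL-specific, so both genes went both ways. A region 8492 bp from the start of Ptgs2 was BEL-specific too, although every untreated library had an unlisted peak there.

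Genes that take up or rebuild LPC and arachidonic acid held 13 higher and 5 lower regions among 149 tested (8.72% and 3.36%, beside 4.62% and 2.96% over all regions), in the windows of 11 and 5 of 32 genes. Of the 13 higher regions, 5 were promoters of list genes, and others were promoters of neighbours, such as that of Mrpl15 in the Lypla1 window. Acsl4 couples arachidonic acid to coenzyme A, and its promoter was at 5.45, 7.47, 11 and 8.44 in untreated and 15, 14.9, 15.6 and 15.8 in BEL libraries (1.03 ± 0.16, limma adjusted p = 0.0035). Lpcat1 adds a fatty acid back to LPC, and its promoter was at 8.17, 9.62, 16.3 and 15.5 against 16.7, 18, 20.1 and 19.5 (0.72 ± 0.12, limma adjusted p = 0.00409). Neither overlapped between the groups. The promoters of Lpcat2 (0.77 ± 0.15), Mboat1 (0.70 ± 0.17) and Lypla1 (0.61 ± 0.11), which reacylate LPC or cut it further, were called higher as well (limma adjusted p = 0.00806, 0.0193 and 0.00598), but not with width and GC adjusted. An intron region of Acsl5, another acyl-CoA synthetase, was called lower (-0.54 ± 0.14, limma adjusted p = 0.0271). Other lower regions lay in the windows of Lpcat1, Lpcat2, Lypla1 and Lpcat4. They changed by -0.67, -0.66, -0.62 and -0.76 (limma adjusted p = 0.0456, 0.0277, 0.0283 and 0.0227). None of them was called with width and GC adjusted. Without BEL replicate 3 the calls at Mboat1 (limma adjusted p = 0.0740) and Acsl5 (0.0830) were lost, whereas those at Acsl4, Lpcat1 and Lpcat2 stayed called without any 1 library. The median difference over the list was -0.02. By presence, the list held 3 BEL-specific and 5 corpse-specific of 289 regions, beside 1404 and 445 of 89755 over all regions.

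Retinoid receptor and metabolism genes gave 4 higher and 3 lower of 132 regions (3.03% and 2.27%, beside 4.62% and 2.96% over all regions). The promoters of the receptor genes Rxra, Rarg and Rara were not called. Rxra was at 12.8, 12.1, 12.8 and 16.7 in untreated and 10.8, 10.2, 11 and 10.9 in BEL libraries (-0.27 ± 0.16, limma adjusted p = 0.280), with every BEL value below every untreated one before normalization and an overlap after it. Rarg, the retinoic acid receptor most abundant in skin, was at 8.72, 9.09, 11.1 and 12.1 against 8.38, 10.1, 8.69 and 8.80 (-0.12 ± 0.18, limma adjusted p = 0.713), and Rara differed by 0.03 ± 0.15. The promoter of Ncoa1, a coactivator of nuclear receptors, was at 4.13, 4.43, 9.29 and 7.41 against 9.98, 9.04, 11.1 and 11.5 and was called higher (0.95 ± 0.19, limma adjusted p = 0.00905). A region in the window of Dhrs9, a retinol dehydrogenase, rose too, although the nearest start was that of Abcb11 (0.62 ± 0.13, limma adjusted p = 0.0116). In the window of Rarb, itself a retinoic acid target, 1 region was called higher (0.68 ± 0.18) and 2 were called lower (-0.69 ± 0.17 and -0.76 ± 0.17), with limma adjusted p of 0.0303, 0.0229 and 0.0155. The Ncoa1 call was lost with width and GC adjusted (limma adjusted p = 0.0666), and those at Dhrs9 (0.0602) and Rarb (0.0549 to 0.0935) were lost without BEL replicate 3 and 1 respectively. With width and GC adjusted the Dhrs9 region and 1 lower Rarb region stayed called (limma adjusted p = 0.0314 and 0.0382), and the other 2 Rarb regions did not. The promoter of Cyp26b1, which degrades retinoic acid, was listed in 4 BEL and 2 untreated libraries, and that of Aldh1a2, which makes it, in none.

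Receptors for dying cells were looked at next. Of 89 shared regions in the windows of 22 engulfment receptor genes, 2 were called higher and 1 lower. These were 2.25% and 1.12%, beside 4.62% and 2.96% over all regions. The TAM receptor Mertk had promoter values of 13, 16.3, 20.3 and 24.4 in untreated and 15, 12.1, 19.9 and 19.2 in BEL libraries (-0.05 ± 0.12, limma adjusted p = 0.810). Axl was at 6.14, 4.46, 9.56 and 11 against 8.58, 7.51, 7.78 and 8.95 (0.28 ± 0.21, limma adjusted p = 0.411), and the called region in its window was the promoter of the neighbouring Cyp2s1. Tyro3 had a listed promoter peak in 4 BEL and 1 untreated libraries. Among those called, the promoter of Scarb1, a scavenger receptor for lipoproteins and phosphatidylserine, was at 11.2, 8.23, 11.8 and 11.7 against 16.1, 12.8, 16 and 16.2 (0.58 ± 0.16, limma adjusted p = 0.0367), and an intron region of the integrin gene Itgav was lower (-0.73 ± 0.21, limma adjusted p = 0.0411). Neither call held without BEL replicate 1 or 3 (limma adjusted p up to 0.119 and 0.118) or with width and GC adjusted (0.219 and 0.0761).

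Among the proteins that bridge phosphatidylserine to such receptors, 0 of 53 regions rose and 2 fell (3.77%), beside 4.62% and 2.96% over all regions. The stronger of these was in an intron of Mfge8, whose product links the corpse to alpha-v integrins. It was at 14.5, 14.2, 16.4 and 19.5 in untreated and 9.13, 9.09, 10.2 and 10.7 in BEL libraries, without overlap (-0.64 ± 0.14, limma adjusted p = 0.0118). The call held with width and GC adjusted (0.0291) and without any 1 library (highest 0.0452), and the window printed above carries 1 AGGTCA core. The other lay 21639 bp from the start of Edil3, which encodes a related protein (-0.46 ± 0.11, limma adjusted p = 0.0179), and it was not called without BEL replicate 1 (limma adjusted p = 0.0608) or with width and GC adjusted (0.169). Promoters of the TAM ligands were not called, with Gas6 at 5.59, 5.18, 8.69 and 6.59 against 8.98, 6.93, 9.13 and 8.15 (0.50 ± 0.19, limma adjusted p = 0.111) and Pros1 listed in 4 BEL and 2 untreated libraries.

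The phagocytic cup list, the ELMO, DOCK and Rac machinery with its actin regulators, had the most regions tested of the 24 lists. Of 206 regions, 5 rose (2.43%, beside 4.62% over all regions) and 11 fell (5.34%, beside 2.96% over all regions). The latter lay in the windows of 9 of 32 genes, and the median difference over the list was -0.04. In an intron of Actr2, a subunit of the Arp2/3 complex that branches actin, enrichment was 20, 18.3, 15.6 and 21.9 in untreated and 9.06, 7.95, 9 and 10.3 in BEL libraries (-0.93 ± 0.16, limma adjusted p = 0.00505). A region in the Rac1 window, nearest to the start of Fam220a, was at 11.8, 11.7, 13.7 and 15.8 against 6.44, 6.27, 7.84 and 8.02 (-0.80 ± 0.16, limma adjusted p = 0.00980). In both, the groups stood clear of each other, and both calls held with width and GC adjusted (0.0387 and 0.0354) and without any 1 library. Intron regions of Dock1 were lower at 9.59, 11.2, 13.6 and 14.5 against 7.08, 5.81, 7.26 and 7.95 (-0.71 ± 0.16, limma adjusted p = 0.0151) and differed by -0.75 ± 0.17 at the other (limma adjusted p = 0.0162). Dock4 (-0.74 ± 0.15), Abi1 (-0.71 ± 0.17) and the promoter of Elmo2 (-0.58 ± 0.16) were also called lower (limma adjusted p = 0.0106, 0.0183 and 0.0407). The Abl1 promoter, of a kinase that acts on the cytoskeleton, was called higher (0.46 ± 0.12, limma adjusted p = 0.0297). Without BEL replicate 3 both Dock1 calls were lost (limma adjusted p = 0.0554 and 0.0724), and those at Abi1, Elmo2 and Abl1 were lost without BEL replicate 1 or 4 (0.0615, 0.107 and 0.114). With width and GC adjusted the first Dock1 region and Elmo2 stayed called (limma adjusted p = 0.0399 and 0.0308), and the other Dock1 region, Dock4, Abi1 and Abl1 did not (0.0548, 0.102, 0.0575 and 0.125). By presence, the list held 3 BEL-specific and 0 corpse-specific of 384 regions, beside 1404 and 445 of 89755 over all regions. All of its BEL-specific regions lay in introns in the windows of Dock1 and Elmo2, which thus held regions of both directions.

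Lysosome genes went both ways, with 9 higher and 5 lower regions of 147. These were 6.12% and 3.40%, beside 4.62% and 2.96% over all regions, and the median difference was 0.00. The promoter of Lamp1, the main membrane protein of lysosomes, was at 4.06, 8.19, 13.4 and 9.76 in untreated and 16.5, 12.3, 14.3 and 17.2 in BEL libraries, with untreated replicate 3 inside the BEL range (1.01 ± 0.21, limma adjusted p = 0.0106). The proton pump subunit Atp6v1h had a higher promoter (0.78 ± 0.14, limma adjusted p = 0.00617), as did the lysosomal channel Mcoln1 (0.56 ± 0.15). With width and GC adjusted, none of these 3 promoters was called (limma adjusted p = 0.0615, 0.0529 and 0.196). Lower were a region in the window of the protease gene Ctsl, at 9.62, 12.4, 10.2 and 12.2 against 5.4, 5.17, 4.51 and 5.57 (-0.96 ± 0.20, limma adjusted p = 0.0116), a second region in the Atp6v1h window (-0.83 ± 0.16) and the promoter of Tfe3, a transcription factor for lysosomal genes (-0.47 ± 0.13, limma adjusted p = 0.0335). With width and GC adjusted, these lower regions of Ctsl, Atp6v1h and Tfe3 stayed called (limma adjusted p = 0.0392, 0.0353 and 0.0314). Without BEL replicate 3 the calls at Mcoln1 (limma adjusted p = 0.115), Tfe3 (0.109) and Ctsl (0.0504) were lost. The Ctsd promoter was not called (0.13 ± 0.19). Of 132 regions of phagosome maturation genes, 7 rose and 4 fell (5.30% and 3.03%), with the promoter of Becn1, an autophagy regulator, among the former (0.55 ± 0.12, limma adjusted p = 0.0118, but 0.0527 without BEL replicate 2 and 0.107 with width and GC adjusted).

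**Figure D4:**
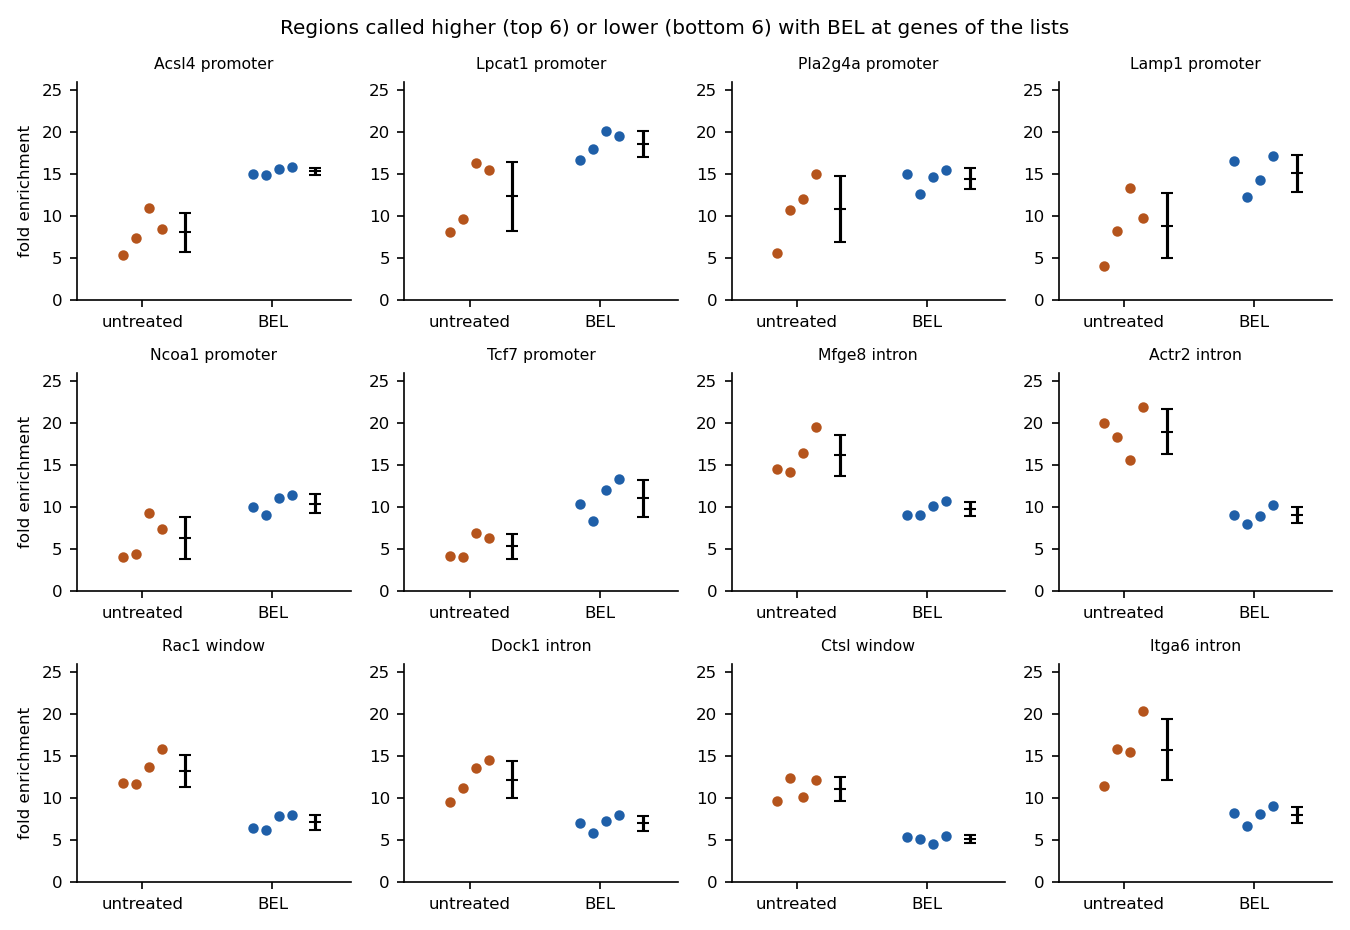
Fold enrichment in each untreated (brown) and BEL (blue) library, with mean and SD as black bars, at 6 regions called higher and 6 called lower with BEL at genes of the lists. The groups do not overlap at Acsl4, Lpcat1, Tcf7 and the 6 lower regions, and they overlap at Pla2g4a, Lamp1 and Ncoa1, where the highest untreated value (9.29) exceeds the lowest BEL value (9.04).

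Lipid targets of LXR and PPAR receptors held 6 BEL-specific and no corpse-specific regions among 185, beside 1404 and 445 among all 89755. The 6 included the promoters of Ppara, Lpl and Plin2. Untreated replicates 3 and 4 had unlisted peaks of 4.52 and 4.95 at Lpl and of 3.36 and 3.87 at Plin2. With BEL the values were 4 to 5.9 and 3.63 to 4.24, so called peaks of the groups overlapped there in enrichment. Of 93 shared regions, 4 were higher and 1 lower (4.30% and 1.08%, beside 4.62% and 2.96% over all regions). The Abcg1 promoter, of a cholesterol exporter, was at 4.16, 6.71, 8.06 and 8.86 in untreated and 9.72, 10.1, 9.57 and 13.1 in BEL libraries (0.76 ± 0.18, limma adjusted p = 0.0177). The Abca1 promoter was listed in 4 BEL and 3 untreated libraries. Stress and wound genes had a median difference of -0.18 over 157 shared regions, beside -0.01 over all, with 2 higher and 6 lower (1.27% and 3.82%). By presence they went the other way, with 9 BEL-specific and no corpse-specific regions among 272, beside 1404 and 445 among all 89755. Basal keratinocyte markers also had a median difference of -0.18, over 128 shared regions. A region 640 bp from the start of Cdkn1a, a cell cycle inhibitor induced by p53, was lower (-0.85 ± 0.25, limma adjusted p = 0.0476), although the peak nearest to that start was not called (-0.47 ± 0.19, limma adjusted p = 0.125). The promoter of Areg, a ligand of the EGF receptor, was higher at 14, 14.1, 17.1 and 15.2 against 5.55, 6.78, 12.9 and 11.1 (0.88 ± 0.16, limma adjusted p = 0.00581). Promoters of Fosl1 (0.09 ± 0.17), Atf3 (-0.26 ± 0.17) and Hmox1 (0.10 ± 0.12) were not called. Of 100 regions of NRF2 and oxidative stress genes, 8 rose and 5 fell (8% and 5%), with the Nqo1 (0.78 ± 0.22) and Me1 (1.00 ± 0.22) promoters among the former and regions of Srxn1 (-0.56 ± 0.11) and Prdx1 (-0.93 ± 0.19) among the latter. Without BEL replicate 1 or 2 the calls at Abcg1 (limma adjusted p = 0.0637), Cdkn1a (0.117), Nqo1 (0.118) and Me1 (0.0591) were lost, and those at Areg, Srxn1 and Prdx1 were kept without any 1 library. With width and GC adjusted the first 4 were lost too (limma adjusted p = 0.0606, 0.0698, 0.113 and 0.0799), and those at Areg, Srxn1 and Prdx1 held (0.0352, 0.0442 and 0.0321).

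Genes of stem cell identity and proliferation were split as well, and 4.62% higher and 2.96% lower over all regions stand beside their shares. In the windows of 25 HFSC identity genes, 6 of 153 shared regions rose, all within Nfib, Gli2 or Tcf7l1, and 5 fell, including the Itga6 intron above (3.92% and 3.27%). These windows also held 8 BEL-specific and 1 corpse-specific of 328 regions, beside 1404 and 445 of 89755 over all regions. Promoters of Nfatc1, Tbx1 and Nfix were among the BEL-specific ones, with unlisted peaks in untreated replicates 3 and 4. The only shared region of Sox9, its promoter, was at 13.8, 14.3, 13.3 and 17.5 in untreated and 11, 10.8, 9.86 and 10.5 in BEL libraries and was not called (-0.41 ± 0.17, limma adjusted p = 0.130). The promoter of Tcf7, a nuclear partner of beta-catenin, was called higher at 10.4, 8.31, 12.1 and 13.4 against 4.16, 4.07, 6.91 and 6.35 (1.19 ± 0.18, limma adjusted p = 0.0035). Among cell cycle genes, 5 of 110 regions rose and 6 fell (4.55% and 5.45%). The Rb1 promoter was higher (1.12 ± 0.23, limma adjusted p = 0.00905) and the Ccnd1 promoter, of the cyclin that starts Rb phosphorylation, was lower (-0.77 ± 0.23, limma adjusted p = 0.0437). Inflammatory genes gave 6 higher and 7 lower of 108 (5.56% and 6.48%), with the chemokine promoter Cxcl1 (0.74 ± 0.18) higher and a region in the Il18 window (-0.83 ± 0.16) lower. The calls at Ccnd1 and Cxcl1 were lost without BEL replicate 1 and 2 respectively (limma adjusted p = 0.128 and 0.0775). With width and GC adjusted those at Rb1 and Cxcl1 were lost (limma adjusted p = 0.057 and 0.0787), and those at Ccnd1 and Il18 held (0.0399 and 0.0291).

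Regions set by the 8 libraries were then looked up in the other 11 cultured libraries, which had no part in choosing them. Of the corpse-specific regions, 95.5, 69.4 and 94.2% had a called peak in the 3 libraries of Rxra cKO HFSCs, which lack Rxra, with untreated corpses, whose shortest peaks were 81, 81 and 75 bp, beside 96.4, 84.4 and 97.4% of the other listed regions. In the cKO libraries given arachidonic acid, LPC and retinoic acid (AA+LPC+RA) the shares were 31.5 and 24.7%, beside 81.4 and 75.2% of the others, with shortest peaks of 137 and 133 bp. A Rxra WT library given AA+LPC+RA, with a shortest peak of 104 bp, had 78.9%, beside 97.3%. The BEL-specific regions had a peak for 64.3, 32.1 and 72% in the cKO corpse libraries, 62.7 and 49.6% in the cKO AA+LPC+RA libraries and 90.7% in the WT one. At the common list length, the cKO corpse libraries held 71.7, 60 and 65.4% of the corpse-specific and 12.4, 17.7 and 14.9% of the BEL-specific regions. At that length the AA+LPC+RA libraries held 58.7% (WT) and 30.6 and 24.7% (cKO) of the corpse-specific and 51.2%, 58.3 and 49.6% of the BEL-specific regions. The other 5 libraries were shallow, with 4111 to 5709 peaks in medium and 12957 in the second WT AA+LPC+RA library, and held under 1% of the corpse-specific regions.

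**Figure D5:**
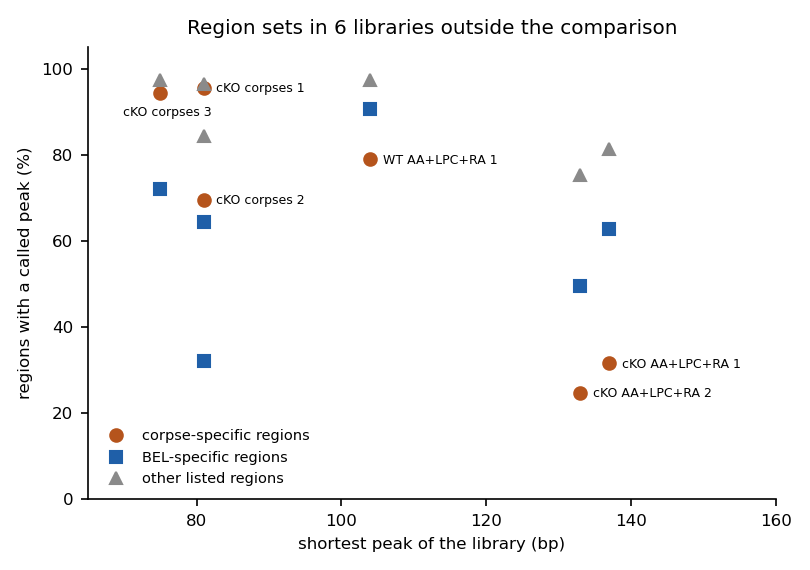
Share of corpse-specific (circles), BEL-specific (squares) and other listed regions (triangles) with a called peak, by the shortest peak of the library, in the 6 of 11 other cultured libraries with more than 50000 peaks. Corpse-specific regions were found at 69.4 to 95.5% in libraries with shortest peaks of 75 to 104 bp and at 24.7 to 31.5% in those with 133 and 137 bp. The libraries with 133 and 137 bp were the cKO ones given AA+LPC+RA, and those with 75 and 81 bp the cKO ones given corpses. Treatment, genotype and depth thus differed along this axis too, and the part of each was not tested.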

How the data were processed

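ATAC-seq peaks were compared between 4 libraries of HFSCs with BEL-treated corpses and 4 with untreated corpses. Per the labels and the study's methods, reads were mapped by the authors with BWA to mm39, duplicates were discarded (SAMtools), and MACS3 called the peaks of every library on its own (BWA 0.7.18 and MACS3 3.0.0 in the submitters' processing notes). The deposited values used are fold enrichment at the summit, a ratio to local background, and the -log10 p-value and -log10 q-value of each peak. The files hold no read counts, so the count test the study's methods describe could not be run here. Fragments per library were therefore estimated from the lowest background that pileup and fold enrichment imply, the shortest peak and the genome size.

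Peaks on 21 chromosomes were ranked by -log10 p, cut to 63739 per library, and joined where they shared 1 bp. Signal was tested with limma 3.58.1 (trend and robust) in R 4.3.3 in regions with a peak in all 8 libraries. Shares were compared by exact two-sided permutation tests. Genes took regions from 50 kb upstream to 5 kb downstream, the window of the study, but here a region counted for every gene whose window held it, with no filter on expression. Sequences are from the mm39 reference. The test scripts were tested on simulated data. The text names the 10 regions of each direction with the lowest p or best rank, 20 further genes always, and called regions of 24 gene lists (563 of 565 genes found). The members and lists were chosen with earlier results of these data known. The main tests did not pair the libraries, and replicate numbers entered only the setting with a replicate block. Deviations of same-numbered libraries correlated at 0.171, 0.199, 0.148 and 0.345, but other pairs within a stored tag did so as well (0.131 to 0.362).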

Additional observations from a re-analysis of the deposited data

Results flagged for a closer look

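In 9 of 128 groups of 4 libraries, 1 library stood apart by Dixon's ratio, which chance does in about 1 in 20 groups. BEL replicate 4 had a shortest peak of 145 bp, against 144 bp in the other 3. BEL replicate 2 had 13 peaks on the Y chromosome, against 20 to 21, and 40% of its list between genes, against 40.2%. Untreated replicate 1, the shallowest library, had 0.0518% of its list on the Y chromosome, against 0.0110 to 0.0173%, and the TCF/LEF core CTTTGAA in 3.75% of its listed peaks, against 3.52 to 3.55%. The DR4 repeat was in 0.0628% of the listed peaks of BEL replicate 1, against 0.0706 to 0.0722%. The C/EBP core TTGCNNAA was in 9.01% of those of BEL replicate 2, against 9.29 to 9.34%, and the IRF core GAAANNGAA in 4.37% of those of BEL replicate 4, against 4.52 to 4.55%. At the Pex7 promoter, BEL replicate 2 had a fold enrichment of 22.4, against 23.1 to 23.2.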

How the results depend on the processing

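Fragment length and depth differed between the treatments without overlap, so no setting here separates them from BEL, and no named region that was called changed direction under any setting run. BEL-specific and corpse-specific regions numbered 469 and 839 with all called peaks, 423 and 270 with -log10 q of at least 5, 1122 and 1363 by summits, 1660 to 2283 and 504 to 776 with 1 library left out, 6258 and 2648 within NonPhago libraries, and 3682 and 1903 within Phago libraries. With peaks of at least 145 bp, a setting chosen after seeing the data, they were 944 and 347. The Jaccard difference was 0.0405 with all called peaks, 0.0262 with the stricter q, 0.0396 to 0.0786 with 1 library left out, and 0.0778 and 0.0525 within NonPhago and Phago libraries, where the smallest exact p is 0.333. Regions called higher and lower by limma numbered 0 and 106 without normalization, 6146 and 5521 by summit pileup, 3482 and 2866 with the replicate block, and 3463 and 3032 with the stored tag as a term. Median centring left 1929 lower. With 1 library left out, the counts ran from 550 to 3213 higher and 294 to 2641 lower. Settings chosen after seeing the data gave 785 and 830 with width and GC adjusted, 510 and 402 outside promoters, 859 and 551 within NonPhago and 336 and 191 within Phago libraries. In all of median centring, pileup, plain limma, both blocks, width and GC and each library left out, 243 of 1964 and 148 of 1259 stayed called. In lists of 31869 peaks, 6 annotation classes and 20 motifs passed, against 0 of each. Gene windows from 10 kb upstream held 65 higher regions, against 101. At the common list length, Rxra cKO corpse libraries held a mean of 65.7% of the corpse-specific and 15% of the BEL-specific regions, against 86.4% and 56.1%. The cause of these changes was not tested. The replicate block changed no call at a named region.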

Other observations

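In the windows of 32 WNT, BMP and TGF-beta signalling genes, 13 of 303 regions were BEL-specific and 1 was corpse-specific, beside 1404 and 445 of 89755 over all regions, and 5 of 137 shared regions were called higher and 4 lower (3.65% and 2.92%, beside 4.62% and 2.96%). A region in the window of Notch1, a receptor that steers epidermal fate, was called lower (-0.56, limma adjusted p = 0.00598). Apoptosis regulators had 6 higher and 4 lower of 100 regions, and 4 of their 21 tested promoters were called higher and none lower, beside 1494 and 164 of 10601 over all genes. Epidermal differentiation genes had 6 higher and 4 lower of 111. Constitutive genes, which most cells use, had 5 higher and 1 lower of 57, with a median difference of -0.11.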
